A study of Mus musculus with 9 samples.

Results

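Genes of glycolysis, of lactate and pyruvate handling and of the response to low oxygen were followed in cultured mouse oligodendrocyte progenitor cells (OPCs) without p53. The members were the rows of the deposited count table whose gene identifier maps to 1 of 36 listed symbols. These were 37 of the 56980 rows, because the symbol Aldoa belonged to 2 identifiers. Of the 37 rows, 36 passed the filter on low counts and Car9 did not. They comprised 2 glucose transporters, 10 rows of upper glycolysis, 6 genes of lower glycolysis, 5 of lactate and pyruvate handling, 3 of oxygen sensing, 3 subunits of hypoxia-inducible factors, 6 hypoxia targets and 2 collagen prolyl hydroxylases.

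All libraries came from primary Trp53 -/- OPC lines kept in SATO medium, which holds insulin, pyruvate and forskolin, with 10 ng/mL PDGF-AA, with 3 libraries in each of 3 groups. BB-p53n EZH2i cells express the growth factor PDGF-BB and were given 5 µM tazemetostat, an inhibitor of the histone methyltransferase EZH2, for 48 hours. BB-p53n DMSO cells also express PDGF-BB and were given only DMSO, the vehicle, diluted 1 in 10000. p53n cells are labelled as the control, with no vehicle named. Mouse strain and age, the number of lines or clones, the PDGF-BB construct and the oxygen level are not stated in these sources. Whether replicate libraries stem from different cultures is not labelled either, so the p-values speak only of library-to-library spread, part of which may be technical. For short, "with PDGF-BB" stands for BB-p53n DMSO minus p53n and "with the inhibitor" for BB-p53n EZH2i minus BB-p53n DMSO.

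Total counts were between 19471768 and 34557109 per library, and levels are given in CPM, a gene's counts relative to its library's TMM-scaled total. All 6 OPC markers were above 1 CPM in at least 1 group, with a summed level of 4558 to 4835 CPM in BB-p53n EZH2i, 5880.5 to 5949 CPM in BB-p53n DMSO and 5731 to 6164 CPM in p53n. Markers of differentiating oligodendrocytes summed to 64.9 to 77.6, 139.9 to 159 and 1991 to 2129.8 CPM in the same order, with 4 of 6 above 1 CPM, and astrocyte markers to 12.8 to 20.6, 34.4 to 37.4 and 136 to 189 CPM. Mitochondrially encoded genes took 1.34 to 1.54% of the counts in BB-p53n EZH2i, 2.44 to 2.62% in BB-p53n DMSO and 4.46 to 5.76% in p53n. Xist was at 2.82 to 17.4 CPM in BB-p53n EZH2i, 46.2 to 65 CPM in BB-p53n DMSO and 2777 to 3101 CPM in p53n, and the Y-linked Kdm5d was at 10.4 to 17.9, 41 to 48.3 and 0.278 to 0.925 CPM, so PDGF-BB, the vehicle and the source of the culture cannot be told apart in contrasts with p53n. In bulk libraries fewer cells of a type and less RNA per cell cannot be told apart either. Xist and Kdm5d also did not overlap between BB-p53n EZH2i and BB-p53n DMSO, so the inhibitor contrast holds such a shift too. The part of these shifts in the members' results was not tested.

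Glycolysis splits glucose into pyruvate in the cytosol. Pyruvate is either reduced to lactate, which leaves the cell through monocarboxylate transporters, or oxidised in mitochondria, a route that pyruvate dehydrogenase kinases hold back. With oxygen present, prolyl hydroxylases encoded by Egln genes mark the α subunits of hypoxia-inducible factors, which the product of Vhl then targets for degradation. When oxygen is low, the α subunits (Hif1a, Epas1) pair with Arnt and bind DNA at a short core motif, and many glycolytic genes are among their known targets. This control acts mainly on protein stability, which RNA counts do not measure.

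The core of the hypoxia response element was looked up in the members' promoters, since many of them are textbook targets. The motifs were ACGTG and GCGTG on both strands, so CACGT and CACGC were matched too, and the palindrome CACGTG gives 2 overlapping matches. RefSeq promoter windows on GRCm38.p6 were found for 33 of the 36 symbols, in 47 windows, and Slc2a3, Ndrg1 and Epas1 had no entry. In the 250 bases before the start, 76.6% of the members' windows held either motif, against 38.6% of all 32851 windows. ACGTG alone was in 48.9% of the members' windows, against 16.6% of all. The members' windows were also richer in GC, with a median of 61.6% against 52.4%. The 250 bases before the start are shown for 4 members that rose in both main comparisons (Slc2a1, Hk2, Pfkp, Ldha) and for 2 that fell with PDGF-BB (Egln3, Pdk2), a choice made with their values known, and capitals mark motif matches.
Slc2a1, GRCm38.p6 chr4:119108495-119108744, plus strand: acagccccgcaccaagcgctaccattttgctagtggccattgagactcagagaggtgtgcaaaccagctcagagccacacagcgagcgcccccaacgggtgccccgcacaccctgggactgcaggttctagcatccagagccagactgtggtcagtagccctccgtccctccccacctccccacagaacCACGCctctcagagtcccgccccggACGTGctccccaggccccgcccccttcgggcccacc
Hk2, GRCm38.p6 chr6:82774455-82774704, minus strand: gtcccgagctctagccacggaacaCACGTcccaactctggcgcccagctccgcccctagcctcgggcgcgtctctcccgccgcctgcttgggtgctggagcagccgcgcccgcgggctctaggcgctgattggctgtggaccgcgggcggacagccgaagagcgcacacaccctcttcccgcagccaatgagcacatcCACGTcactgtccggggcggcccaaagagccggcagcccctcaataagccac
Pfkp, GRCm38.p6 chr13:6648772-6649021, minus strand: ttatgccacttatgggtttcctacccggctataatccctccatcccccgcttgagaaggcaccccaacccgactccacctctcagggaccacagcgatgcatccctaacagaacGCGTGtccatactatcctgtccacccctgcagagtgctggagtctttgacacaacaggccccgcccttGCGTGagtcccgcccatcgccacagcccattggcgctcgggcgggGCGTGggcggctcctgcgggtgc
Ldha, GRCm38.p6 chr7:46845554-46845803, plus strand: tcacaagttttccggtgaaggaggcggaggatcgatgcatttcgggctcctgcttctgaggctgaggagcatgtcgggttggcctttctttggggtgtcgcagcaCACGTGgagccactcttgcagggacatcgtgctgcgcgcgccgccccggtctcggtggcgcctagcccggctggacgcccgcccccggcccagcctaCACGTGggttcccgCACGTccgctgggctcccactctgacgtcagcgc
Egln3, GRCm38.p6 chr12:54203875-54204124, minus strand: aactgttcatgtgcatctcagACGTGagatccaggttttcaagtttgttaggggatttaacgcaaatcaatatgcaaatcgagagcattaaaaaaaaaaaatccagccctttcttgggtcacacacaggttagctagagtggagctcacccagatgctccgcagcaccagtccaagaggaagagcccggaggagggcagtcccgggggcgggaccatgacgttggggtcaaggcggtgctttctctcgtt
Pdk2, GRCm38.p6 chr11:95041372-95041621, minus strand: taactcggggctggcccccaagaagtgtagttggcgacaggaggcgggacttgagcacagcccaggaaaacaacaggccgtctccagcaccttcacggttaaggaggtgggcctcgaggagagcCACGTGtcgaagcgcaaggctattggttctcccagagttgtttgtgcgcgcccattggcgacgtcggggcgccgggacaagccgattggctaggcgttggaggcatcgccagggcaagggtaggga
The Ldha window held 5 matches, including 2 CACGTG palindromes, and the other Ldha window in the table held 1 before the start. The Pdk2 window held 1 such palindrome, while the other Pdk2 window held 0 matches. Both members that rose and members that fell thus carried the motif, and these matches describe letters, not bound sites.

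Some members have many processed pseudogenes, and fragments were counted only at a mapping quality of at least 20. The share of 31-base words of the longest transcript that also occur in other genes was 84.1% for Gapdh, with 318 pseudogenes among them, 77.2% for Eno1, 74.8% for Bnip3, 68.3% for Pgk1 and 50.9% for Pkm. It was between 30% and 42.1% for Pgam1, Ldhb, Gpi1, Aldoa and Ldha. The levels of these 10 genes are uncertain and rest on the fragments that could be placed; the other 26 tested rows were under 30%. Counting used no strand, so reads cannot be told apart where genes overlap on opposite strands, which with same-strand overlaps covered 28.6% of the exon bases of Car9, 26.4% of Ankrd37, 22.3% of Bnip3, 15.3% of Pkm, 10.7% of Pfkm, 8.4% of Ndrg1 and 8.1% of Hif1a.

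**Figure D1:**
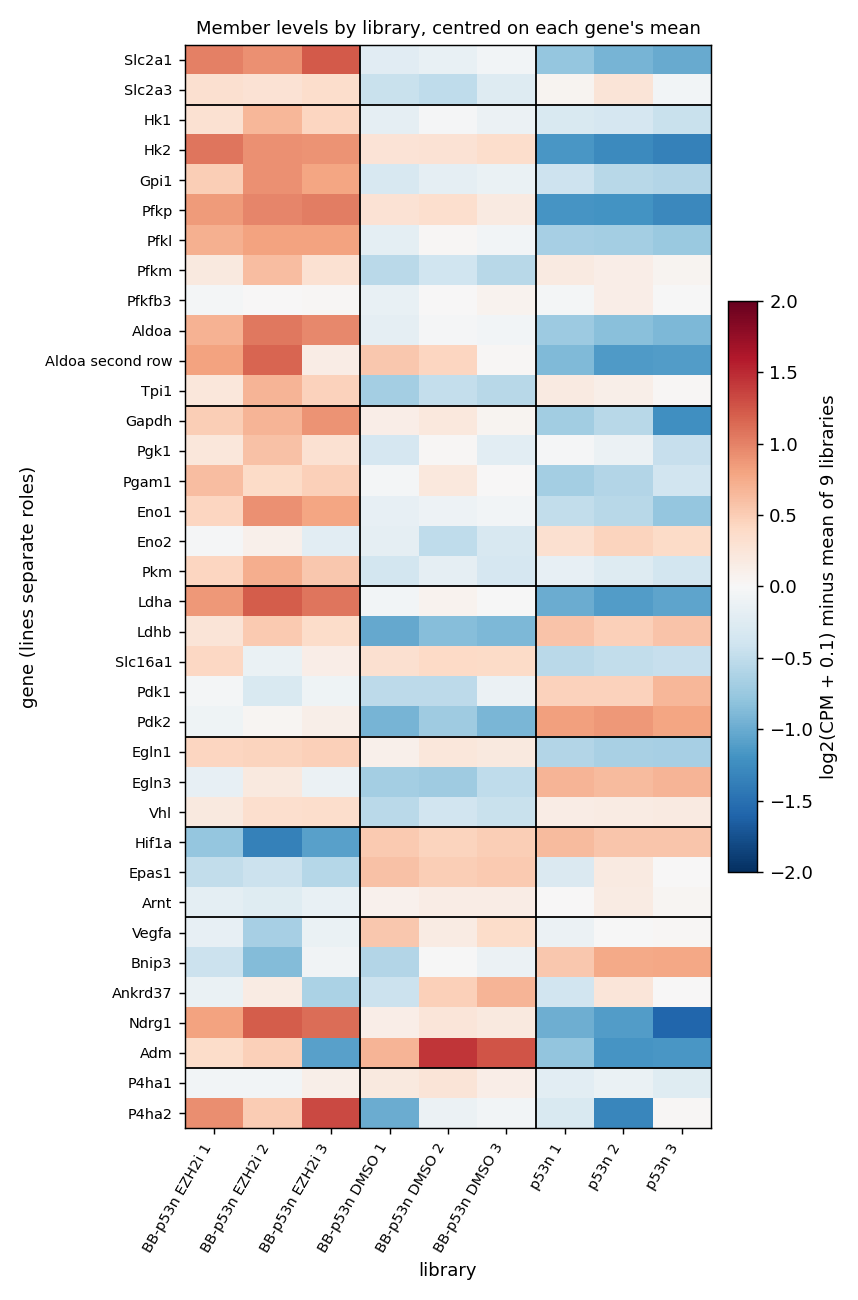
Levels of the 36 tested rows in the 9 libraries, as log2(CPM + 0.1) minus the mean of the row over all libraries (color), with lines between roles. Hk2, Pfkp, Ldha and Ndrg1 are highest in BB-p53n EZH2i and lowest in p53n, Ldhb, Pdk2 and Egln3 are lowest in BB-p53n DMSO, and Hif1a is lowest in BB-p53n EZH2i.

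The first comparison set PDGF-BB-expressing cells against p53n. The genes of the entry steps moved in both directions with PDGF-BB: on the log2 scale Hk2 (1.57), Pfkp (1.50) and Slc2a1 (0.76) rose, while Slc2a3 (-0.50) and Pfkm (-0.62) fell. Of the lactate dehydrogenase genes Ldha rose (1.05) and Ldhb fell (-1.47), and the kinase genes Pdk1 (-0.92) and Pdk2 (-1.68) fell. A gene was called at an adjusted p under 0.05 in edgeR's quasi-likelihood test over 17001 genes. Of the 36 tested rows 19 were called higher, where 35.3% of all genes were, and 10 lower, where 34.0% of all genes were. The median log2 fold change was 0.34 over these rows and -0.02 over all genes. The groups did not overlap in 30 rows, where they did not in 76.1% of all genes. By role, 7 of 10 rows of upper glycolysis rose and 2 fell, against 3 and 1 of 6 in lower glycolysis and 2 and 3 of 5 in lactate and pyruvate handling. Upper quartile scaling moved the median of all genes to -0.16 and ended the calls of Hk1 (0.11, adjusted p = 0.26), Gpi1 (0.15, adjusted p = 0.142) and Vegfa (0.25, adjusted p = 0.0712).

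**Figure D2:**
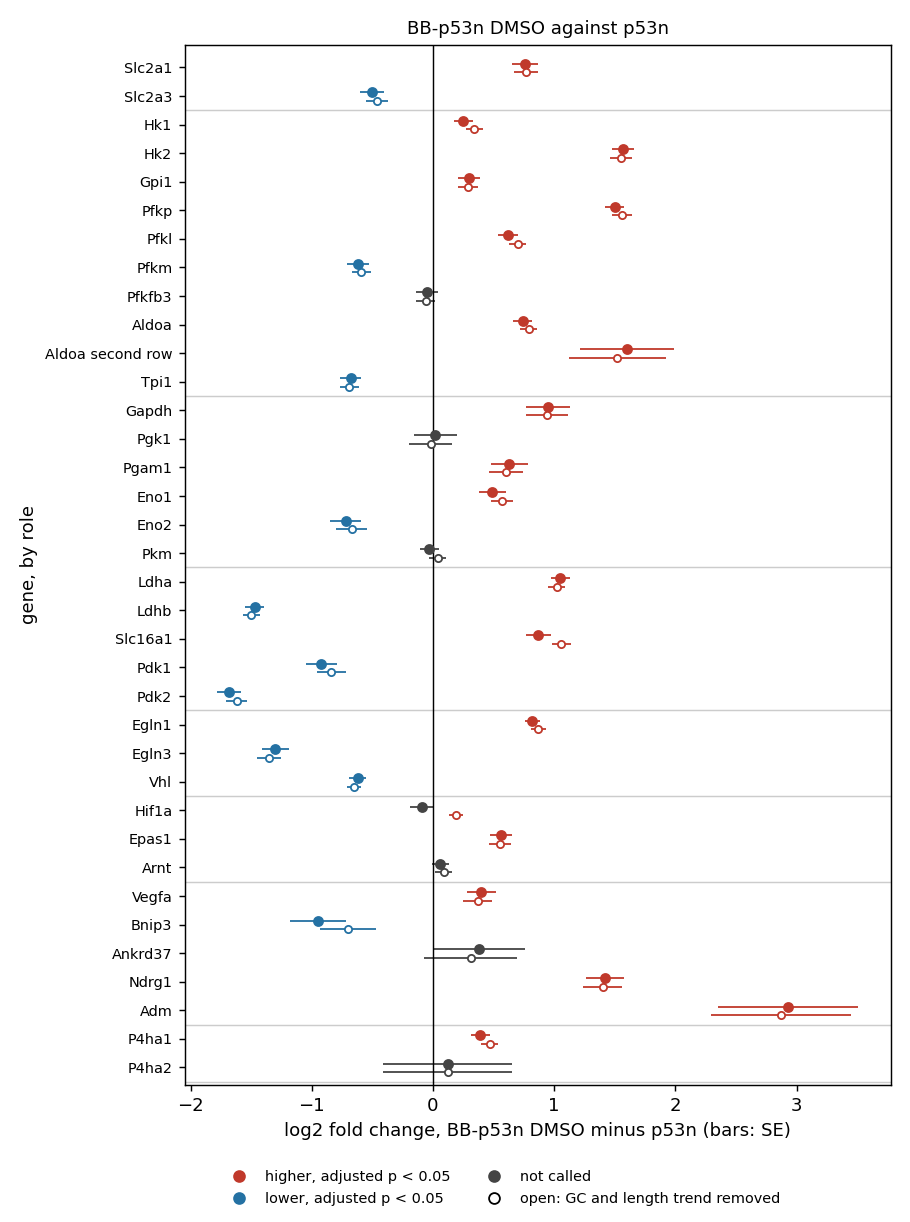
Log2 fold change of each tested row, BB-p53n DMSO minus p53n, with its SE, ordered by role; filled points are from the counts as deposited, open points from the fit with the GC and length trend removed. Adm stands at 2.93 and Hk2 at 1.57 on the high side, and Pdk2 at -1.68 and Ldhb at -1.47 on the low side.

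The other main comparison set the EZH2 inhibitor against its vehicle in PDGF-BB cells. All 18 called rows among the 23 transporter and enzyme rows were higher in BB-p53n EZH2i, with Ldhb (1.31), Slc2a1 (1.20), Ldha (1.06) and Tpi1 (1.04) in front, while Hif1a (-1.53), Epas1 (-1.03) and Arnt (-0.32) were lower. Of the 36 rows 23 were called higher, where 37.3% of all genes were, and 6 lower, where 35.6% of all genes were. The median log2 fold change was 0.60 over these rows and 0.02 over all genes. Among the 13 hypoxia rows 5 were higher and 6 lower. The groups did not overlap in 29 rows, where they did not in 75.3% of all genes.

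In this comparison the fold change of a gene went with its base composition. Over the 12786 genes whose average log2 CPM exceeded 1, it had a Spearman rho of 0.73 with the GC content of the longest transcript and of -0.43 with exon length, a description across genes that share the same libraries. With PDGF-BB these were 0.14 and -0.07. With the inhibitor the median log2 fold change was -1.41 in the lowest GC decile and 0.83 in the highest. Of the 23 transporter and enzyme rows 19 had a GC content above the median of all genes, 49.4%. After the trend was removed in each library, 20 rows were called higher, where 29.5% of all genes were, and 6 lower, where 27.7% of all genes were, with a median of 0.23. Of the calls on the counts as deposited, 17 of 23 higher and 4 of 6 lower were made in both fits, of which 14 higher and 0 lower were among transporters and enzymes. With PDGF-BB the same step gave 20 rows higher and 10 lower, where 39.9% and 31.5% of all genes were, and all 19 higher and 10 lower calls were made in both fits. Counts over both fits are given for members only, without the share of all genes, so they do not set members apart from other genes.

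**Figure D3:**
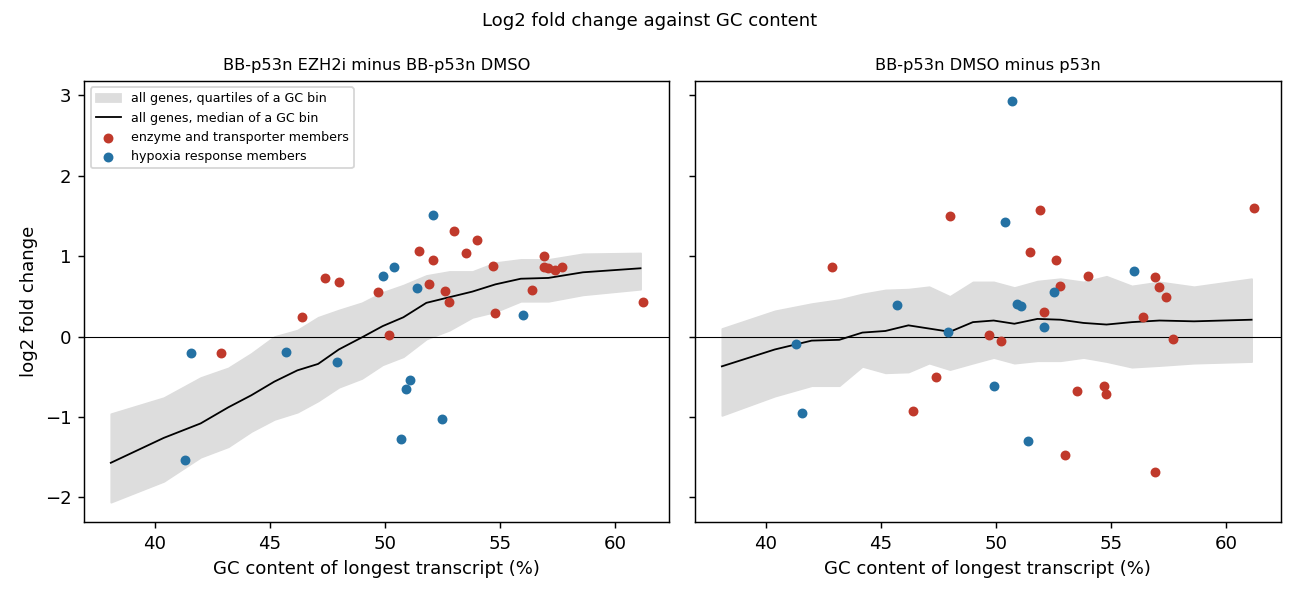
Log2 fold change against the GC content of the longest transcript (%), for BB-p53n EZH2i minus BB-p53n DMSO (left) and BB-p53n DMSO minus p53n (right). The line and band give the median and quartiles of all genes with an average log2 CPM above 1 in 20 bins of GC, and the points are members. On the left the median climbs with GC and many enzyme points lie on or above it, while Epas1, at 52.5% GC, lies well below.

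Glucose enters through transporters such as those encoded by Slc2a1 (GLUT1; GRCm39 chromosome 4, 118965908 to 118995180) and Slc2a3 (GLUT3, the main neuronal form). Slc2a1 had 40.7, 37.9 and 47.4 CPM in BB-p53n EZH2i, 17.2, 18.2 and 19.4 CPM in BB-p53n DMSO, and 11.8, 10.5 and 9.97 CPM in p53n. The groups did not overlap, and levels were highest with the inhibitor. It rose by a log2 fold change of 1.20 (SE 0.10, adjusted p = 1.4e-09) with the inhibitor, 0.63 with the trend removed, and of 0.76 (SE 0.11, adjusted p = 2.9e-06) with PDGF-BB. Slc2a3 averaged 35.3 ± 0.805 CPM in BB-p53n EZH2i, 21.3 ± 1.93 CPM in BB-p53n DMSO and 30.1 ± 3.45 CPM in p53n (SD, n = 3 each). It rose by 0.73 with the inhibitor, 1.13 with the trend removed, and fell by 0.50 with PDGF-BB on the log2 scale. On the scale of CPM per kb of exon, Slc2a3 made up 29 ± 1.89% of the summed level of both transporters in BB-p53n EZH2i, 36.1 ± 1.34% in BB-p53n DMSO and 57.4 ± 3.3% in p53n. On this scale GLUT1 transcripts were the larger part in both PDGF-BB groups and GLUT3 transcripts in p53n. In BB-p53n DMSO this depended on the scaling by length, since in CPM Slc2a3 averaged 21.3 there and Slc2a1 18.2.

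Hexokinases trap glucose as glucose 6-phosphate. Hk2 (chromosome 6, 82702006 to 82751435), the inducible form, had 50.8, 45.9 and 45.4 CPM in BB-p53n EZH2i, 29.2, 29.5 and 31 CPM in BB-p53n DMSO, and 10.8, 9.95 and 9.47 CPM in p53n. The groups were apart in the same order as for Slc2a1. Hk2 rose by 1.57 (SE 0.09, adjusted p = 4.6e-12) with PDGF-BB and by 0.66 (SE 0.08, adjusted p = 5.1e-07) with the inhibitor, 0.46 with the trend removed. Hk1, the main form in brain, was more abundant, at 314 ± 41.1 CPM in BB-p53n EZH2i, 209.5 ± 10.9 CPM in BB-p53n DMSO and 176 ± 9.51 CPM in p53n. Per kb of exon Hk2 made up 17.9 ± 2.62%, 17 ± 0.815% and 7.57 ± 0.223% of the 2 in the same order. Gpi1, the isomerase of the next step, rose by 0.95 with the inhibitor and 0.30 with PDGF-BB.

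Phosphofructokinase catalyses the committed step, and its 3 subunit genes differed in direction with PDGF-BB. Pfkp (chromosome 13, 6629804 to 6698813), the platelet-type subunit, had 85.9, 92.9 and 96.3 CPM in BB-p53n EZH2i, 57.9, 60 and 53.9 CPM in BB-p53n DMSO, and 20.8, 20.6 and 19.3 CPM in p53n. The groups did not overlap. Its log2 fold change was 1.50 (SE 0.08, adjusted p = 7.5e-13) with PDGF-BB and 0.68 (SE 0.07, adjusted p = 6.2e-08) with the inhibitor, where removing the trend gave 1.35. Pfkl, the liver-type subunit, rose by 0.62 with PDGF-BB and 0.85 with the inhibitor, 0.35 with the trend removed. Pfkm, the muscle-type subunit, averaged 279 ± 43.7 CPM in BB-p53n EZH2i, 152 ± 9.96 CPM in BB-p53n DMSO and 233 ± 10.3 CPM in p53n. It fell by 0.62 with PDGF-BB and rose by 0.88 with the inhibitor, 0.24 with the trend removed. It was the main form throughout, with 81.1 ± 1.95%, 80.3 ± 0.472% and 92.1 ± 0.138% of the per-kb level of the 3 in the same order. The size of these shares depends on the length of all exons together, 13401 bases for Pfkp and 3340 for Pfkm. In CPM, without this scaling, Pfkm also had the highest mean of the 3 in each group. The Pfkm share differed by -11.8 percentage points with PDGF-BB and the Pfkp share by 5.55, but by -22.7 and 15.3 points where CPM were not scaled by length. Pfkfb3, whose product makes the activator fructose 2,6-bisphosphate, averaged 28.8 ± 0.676, 28.4 ± 2.28 and 29.3 ± 1.83 CPM and was not called (0.02, adjusted p = 0.858 with the inhibitor; -0.05, adjusted p = 0.641 with PDGF-BB).

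Aldolase A cleaves the phosphorylated hexose. Aldoa (chromosome 7, 126394406 to 126399923) had 543, 697 and 653 CPM in BB-p53n EZH2i, 296, 328 and 322 CPM in BB-p53n DMSO, and 201, 188 and 179 CPM in p53n. The groups did not overlap. It rose by 1.00 (SE 0.08, adjusted p = 1.3e-09) with the inhibitor, 0.22 with the trend removed, and by 0.74 (SE 0.08, adjusted p = 1.2e-07) with PDGF-BB. The neighbouring identifier with the same symbol (chromosome 7, 126399962 to 126408280), the Aldoa second row, had 39, 38 and 20 counts in BB-p53n EZH2i, 43, 40 and 28 in BB-p53n DMSO, and 12, 8 and 8 in p53n. It rose by 1.60 (SE 0.39, adjusted p = 0.00113) with PDGF-BB and was not called with the inhibitor (0.43, adjusted p = 0.245). Tpi1, triose phosphate isomerase, had 132, 181 and 156 CPM in BB-p53n EZH2i, 70.7, 80.6 and 76.8 CPM in BB-p53n DMSO, and 128, 123 and 115 CPM in p53n. Levels were lowest in BB-p53n DMSO. Tpi1 fell by 0.68 (SE 0.09, adjusted p = 3.4e-06) with PDGF-BB and rose by 1.04 (SE 0.09, adjusted p = 1.3e-08) with the inhibitor, 0.45 with the trend removed.

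Lower glycolysis yields ATP and pyruvate. Gapdh, the dehydrogenase of the first of these steps, averaged 7.97 ± 1.16 CPM in BB-p53n EZH2i, 5.35 ± 0.284 CPM in BB-p53n DMSO and 2.75 ± 0.657 CPM in p53n, on the few fragments that could be placed. It rose by 0.95 (SE 0.18) with PDGF-BB and by 0.57 (SE 0.17) with the inhibitor, a call that was lost with the trend removed (0.15, adjusted p = 0.427). Pgk1, the X-linked phosphoglycerate kinase, averaged 5.17 ± 0.702, 3.5 ± 0.455 and 3.43 ± 0.543 CPM. It was called higher with the inhibitor (0.56, adjusted p = 0.00882) but not with the trend removed (0.31, adjusted p = 0.137), and it was not called with PDGF-BB (0.02, adjusted p = 0.916). The mutase gene Pgam1 rose by 0.63 with PDGF-BB. With the inhibitor Pgam1 was called at 0.43, but stood at 0.33 without a filter on low counts (adjusted p = 0.0718) and at -0.14 with the trend removed (adjusted p = 0.379).

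Enolase and pyruvate kinase close the pathway. Eno1, the ubiquitous enolase, averaged 91.2 ± 15.7 CPM in BB-p53n EZH2i, 51.2 ± 2.01 CPM in BB-p53n DMSO and 36.3 ± 3.63 CPM in p53n, and rose by 0.83 with the inhibitor, 0.22 with the trend removed, and by 0.49 with PDGF-BB. Eno2, the neuronal enolase, averaged 8.38 ± 0.924, 6.82 ± 0.773 and 11.2 ± 0.453 CPM and fell by 0.72 with PDGF-BB. Its share of the per-kb level of both was 9.65 ± 1.74%, 13.2 ± 1.63% and 26.2 ± 2.36%, highest in p53n. The size of this share is uncertain, since 77.2% of the words of Eno1 and 2.1% of those of Eno2 occur in other genes. With the inhibitor Eno2 was not called (0.29, adjusted p = 0.0529), but was called without BB-p53n DMSO replicate 1 (0.37, adjusted p = 0.0345) or BB-p53n EZH2i replicate 3 (0.37, adjusted p = 0.0262). Removing the trend turned the sign of Eno2, again with no call (-0.25, adjusted p = 0.113). Pkm, pyruvate kinase, averaged 1043 ± 109, 574 ± 39.1 and 587 ± 39.7 CPM. It rose by 0.86 (SE 0.08, adjusted p = 6.1e-09) with the inhibitor, 0.21 with the trend removed, and was not called with PDGF-BB (-0.03, adjusted p = 0.724).

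Per kb of exon, the most abundant members in BB-p53n EZH2i were Aldoa at 217 ± 27.3 and Pkm at 209 ± 21.7 CPM per kb, then Ldha at 109.5 ± 13. In BB-p53n DMSO they were Pkm at 115 ± 7.81, Aldoa at 108 ± 5.82 and Ldha at 52.7 ± 2.39 CPM per kb. In p53n they were Pkm at 117 ± 7.94, Ldhb at 76.6 ± 2.85, Pfkm at 69.9 ± 3.09 and Aldoa at 65 ± 3.86 CPM per kb, with Ldha at 25.4 ± 1.09. The ranges of mean ± SD overlapped for the leading pair in each PDGF-BB group and for Pfkm and Aldoa in p53n, and not for the other neighbours in these orders. All of these but Pfkm are among the genes with shared sequence. So are Gapdh, Pgk1 and Eno1, at 1.93, 2.3 and 16.9 CPM per kb in BB-p53n EZH2i on the fragments that could be placed. Their true places in these orders are unknown.

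The lactate dehydrogenase subunits moved in opposite directions with PDGF-BB and in the same direction with the inhibitor. Ldha (chromosome 7, 46490899 to 46505051), the muscle-type subunit that favours lactate formation, had 317, 403 and 368 CPM in BB-p53n EZH2i, 167, 183 and 174 CPM in BB-p53n DMSO, and 87.8, 80.6 and 83.8 CPM in p53n. Ldhb (chromosome 6, 142435975 to 142453683), the heart-type subunit that favours pyruvate formation, had 98.5, 119 and 107 CPM in BB-p53n EZH2i, 40.7, 45.6 and 44.3 CPM in BB-p53n DMSO, and 123, 115 and 122 CPM in p53n. BB-p53n DMSO libraries were low in Ldhb and intermediate in Ldha, with no overlap with either other group. With PDGF-BB Ldha rose by 1.05 (SE 0.08, adjusted p = 2.3e-10) and Ldhb fell by 1.47 (SE 0.08, adjusted p = 9.7e-13) on the log2 scale. With the inhibitor Ldha rose by 1.06 (SE 0.08, adjusted p = 2.4e-10) and Ldhb by 1.31 (SE 0.08, adjusted p = 1.3e-11). The trend removed, these rises were 0.69 and 0.68.

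As a share of the summed per-kb level of both subunits, Ldha made up 60.4, 61.5 and 62.1% in BB-p53n EZH2i, 66, 65.5 and 65.1% in BB-p53n DMSO, and 25.3, 24.9 and 24.5% in p53n. Ldha was the major subunit transcript in all 6 PDGF-BB libraries and the minor one in all 3 p53n libraries. The difference was 40.6 percentage points with PDGF-BB and -4.18 with the inhibitor, where it was 0.0482 with the trend removed. Exact two-sided permutation tests of 3 libraries against 3 cannot go below p = 0.1, which both differences reached. Of 33 such tests on isoform shares 28 were at this minimum, with a smallest Benjamini-Hochberg adjusted p of 0.118, so none could pass 0.05.

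**Figure D4:**
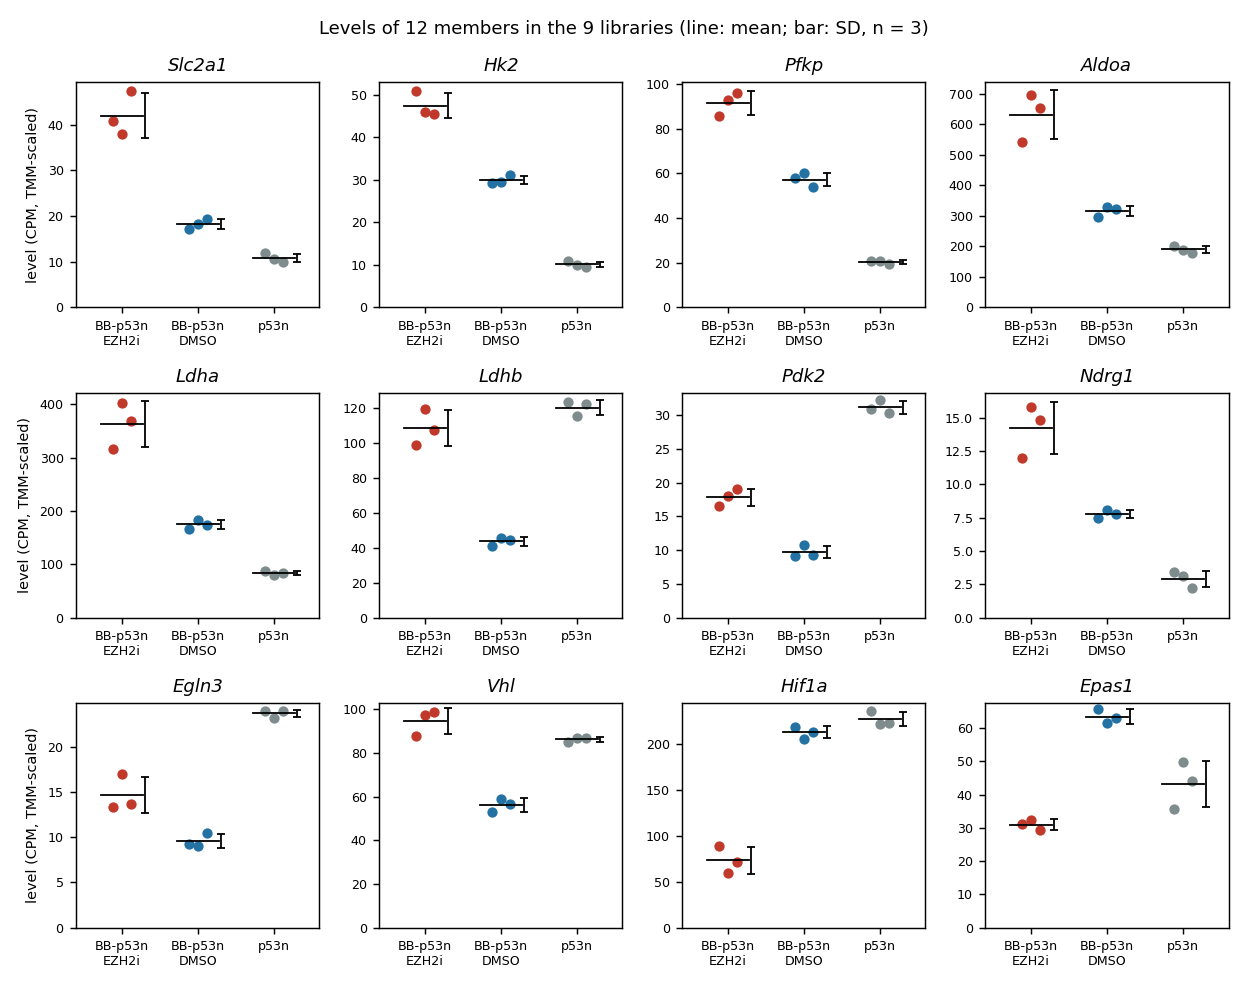
Levels of 12 members in TMM-scaled CPM, with a point per library, a line for the mean and a bar for the SD of 3 libraries, for BB-p53n EZH2i, BB-p53n DMSO and p53n from left to right. Ldhb, Pdk2, Egln3 and Vhl are lowest in BB-p53n DMSO, while Hif1a and Epas1 are lowest in BB-p53n EZH2i.

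Lactate crosses the membrane through MCT1, encoded by Slc16a1. It averaged 52.4 ± 9.88 CPM in BB-p53n EZH2i, 60.7 ± 1.9 CPM in BB-p53n DMSO and 33.3 ± 0.917 CPM in p53n, and rose by 0.87 (SE 0.10, adjusted p = 2.8e-07) with PDGF-BB. With the inhibitor its sign depended on the trend, at -0.21 (adjusted p = 0.0664) on the counts as deposited and 0.56 (adjusted p = 8.5e-07) with the trend removed. It was called lower under several other settings: without a filter on low counts (-0.31, adjusted p = 8.9e-04), without chromosomes X, Y and MT (-0.29, adjusted p = 0.0109), with 2 groups in the fit (-0.30, adjusted p = 0.0266) and with DESeq2 size factors (-0.22, adjusted p = 0.0431). It was also called lower without BB-p53n EZH2i replicate 1 (-0.36, adjusted p = 3.8e-04), p53n replicate 1 (-0.28, adjusted p = 0.0206) or p53n replicate 3 (-0.28, adjusted p = 0.0213).

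Pdk1 and Pdk2 encode kinases that switch off pyruvate dehydrogenase. Pdk2 (chromosome 11, 94917084 to 94932180) had 16.5, 18 and 19 CPM in BB-p53n EZH2i, 9.17, 10.7 and 9.28 CPM in BB-p53n DMSO, and 31, 32.2 and 30.3 CPM in p53n. The groups were apart, with BB-p53n DMSO lowest and p53n highest. Pdk2 fell by 1.68 (SE 0.10, adjusted p = 5.4e-12) with PDGF-BB, and its rise of 0.87 with the inhibitor (SE 0.10, adjusted p = 1.8e-07) was not called with the trend removed (0.11, adjusted p = 0.298). Pdk1 averaged 8.8 ± 0.854 CPM in BB-p53n EZH2i, 7.42 ± 1.27 CPM in BB-p53n DMSO and 14 ± 1.09 CPM in p53n, and fell by 0.92 (SE 0.13, adjusted p = 3.5e-06) with PDGF-BB. With the inhibitor Pdk1 stood at 0.25 (adjusted p = 0.109), at 0.40 without BB-p53n DMSO replicate 3 (adjusted p = 0.0246), at 0.33 without BB-p53n EZH2i replicate 2 (adjusted p = 0.041), and at 0.83 with the trend removed (adjusted p = 6.9e-06). Pdk3, a further kinase gene of this family, is not a member and was chosen for naming after its values were seen; it averaged 38.1 ± 5.5 CPM in BB-p53n EZH2i, 32 ± 2.64 CPM in BB-p53n DMSO and 26.2 ± 1.26 CPM in p53n. Pdk3 rose by 0.29 with PDGF-BB (adjusted p = 0.0147) and by 0.25 with the inhibitor (adjusted p = 0.0281), 0.29 and 0.28 with the trend removed.

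Among the oxygen-sensing genes, Egln1, which encodes the main prolyl hydroxylase, had 153, 156 and 159 CPM in BB-p53n EZH2i, 123, 134 and 131 CPM in BB-p53n DMSO, and 75.9, 72.8 and 72 CPM in p53n. Egln3 (chromosome 12, 54225767 to 54250646), for a hydroxylase that is itself induced by hypoxia, had 13.3, 17 and 13.7 CPM in BB-p53n EZH2i, 9.26, 9.03 and 10.5 CPM in BB-p53n DMSO, and 23.9, 23.2 and 23.9 CPM in p53n. They moved in opposite directions with PDGF-BB, Egln1 rising by 0.82 (SE 0.06, adjusted p = 5.6e-10) while Egln3 fell by 1.30 (SE 0.11, adjusted p = 1.6e-09). Egln3 made up 11.2 ± 1.37% of their per-kb level in BB-p53n EZH2i, 9.09 ± 0.709% in BB-p53n DMSO and 30.3 ± 0.556% in p53n. With the inhibitor Egln1 stood at 0.27 (adjusted p = 8.2e-04), at 0.16 without a filter on low counts (adjusted p = 0.0702) and at -0.42 with the trend removed (adjusted p = 1.4e-06), so its direction turned. Egln3 was called at 0.61 (adjusted p = 7.5e-05) but not with the trend removed (0.21, adjusted p = 0.104).

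Vhl, for the substrate receptor of the ubiquitin ligase, had 87.9, 97.5 and 98.7 CPM in BB-p53n EZH2i, 52.9, 59.1 and 56.7 CPM in BB-p53n DMSO, and 85.1, 86.7 and 86.9 CPM in p53n. Levels were low in the BB-p53n DMSO libraries, with no overlap with either other group. Vhl fell by 0.62 (SE 0.07, adjusted p = 1.7e-07) with PDGF-BB and rose by 0.75 (SE 0.07, adjusted p = 9.1e-09) with the inhibitor, 0.53 with the trend removed.

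Of the factor subunits, Hif1a (chromosome 12, 73948149 to 73994304) had 89.1, 59.7 and 71.7 CPM in BB-p53n EZH2i, 219, 206 and 213 CPM in BB-p53n DMSO, and 236, 222 and 223 CPM in p53n. Epas1 (chromosome 17, 87061128 to 87140838), which encodes HIF-2α, had 31.2, 32.4 and 29.4 CPM in BB-p53n EZH2i, 65.7, 61.5 and 63 CPM in BB-p53n DMSO, and 35.7, 49.7 and 44.1 CPM in p53n. Both were lowest in the inhibitor libraries. With the inhibitor Hif1a fell by 1.53 (SE 0.11, adjusted p = 4.6e-09), but by 0.46 with the trend removed (adjusted p = 2.1e-06); at 41.3% its transcript had the lowest GC content of the members. Epas1 fell by 1.03 (SE 0.10, adjusted p = 8.5e-09) and by 1.33 with the trend removed. With PDGF-BB Epas1 rose by 0.56 (SE 0.09, adjusted p = 2.9e-05), while Hif1a stood at -0.09 (adjusted p = 0.44), at -0.24 with upper quartile scaling (adjusted p = 0.0475) and at 0.19 with the trend removed (adjusted p = 0.00946). Arnt, their partner, had 45.6, 44.1 and 47.5 CPM in BB-p53n EZH2i, 55.4, 58.2 and 58 CPM in BB-p53n DMSO, and 52.5, 58.6 and 54.1 CPM in p53n. The inhibitor libraries were below the others, but the fall of 0.32 (adjusted p = 5.3e-04) was not called with the trend removed (0.07, adjusted p = 0.368).

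The hypoxia targets did not move as a block. Ndrg1 (chromosome 15, 66801167 to 66841489), a stress-response gene, had 12, 15.8 and 14.8 CPM in BB-p53n EZH2i, 7.43, 8.08 and 7.8 CPM in BB-p53n DMSO, and 3.4, 3.08 and 2.19 CPM in p53n. The groups did not overlap. It rose by 1.42 (SE 0.16, adjusted p = 1.6e-07) with PDGF-BB and by 0.86 (SE 0.14, adjusted p = 1.5e-05) with the inhibitor, 0.85 with the trend removed. Vegfa, the angiogenic growth factor, averaged 28.5 ± 5.52 CPM in BB-p53n EZH2i, 44.9 ± 5.75 CPM in BB-p53n DMSO and 34.1 ± 1.75 CPM in p53n. It rose by 0.40 (SE 0.12, adjusted p = 0.00838) with PDGF-BB and fell by 0.65 (SE 0.12, adjusted p = 1.6e-04) with the inhibitor. Bnip3, a mitophagy receptor, averaged 1.55 ± 0.44, 1.81 ± 0.383 and 3.5 ± 0.323 CPM in the same order and fell by 0.95 (SE 0.23, adjusted p = 0.00114) with PDGF-BB, with no call with the inhibitor (-0.21, adjusted p = 0.477).

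Adm, which encodes the vasodilator adrenomedullin, had 11, 9 and 2 counts in BB-p53n EZH2i, 19, 34 and 29 in BB-p53n DMSO, and 4, 2 and 2 in p53n. BB-p53n DMSO stood above both other groups. The ratio of BB-p53n DMSO to p53n was 7.47, with a 95% counting interval from 3.62 to 17.9, and the fitted log2 fold change was 2.93 (SE 0.58, adjusted p = 1.4e-04). With the inhibitor Adm fell by 1.27 (SE 0.48, adjusted p = 0.0228), a call lost without BB-p53n DMSO replicate 2 (-1.10, adjusted p = 0.0947) or 3 (-1.21, adjusted p = 0.0679), without BB-p53n EZH2i replicate 3 (-0.85, adjusted p = 0.123) and in DESeq2 (-1.30, adjusted p = 0.0783). Ankrd37, a known target, had 18, 17 and 10 counts in BB-p53n EZH2i, 19, 39 and 43 in BB-p53n DMSO, and 17, 23 and 19 in p53n. The groups overlapped, and it was not called with PDGF-BB (adjusted p = 0.374) or with the inhibitor (adjusted p = 0.22, or 0.0337 and lower with the trend removed). Car9, a surface carbonic anhydrase used as a hypoxia marker, had 1, 0 and 1 counts in BB-p53n EZH2i, 4, 1 and 4 in BB-p53n DMSO, and 0, 0 and 0 in p53n. With p53n set to a floor of 3 counts over the group, Car9 was 2.19-fold higher in BB-p53n DMSO. This value leaves out the counting error of the 9 counts in BB-p53n DMSO, so it is no lower limit. An opposite-strand gene overlaps Car9 exons, which makes these counts less certain, in a direction that was not tested. The ratio of BB-p53n EZH2i to BB-p53n DMSO was 0.34, with an interval from 0.0357 to 1.64. Intervals cover counting error only, and the floor covers only that of the group without counts.

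P4ha1 and P4ha2 encode oxygen-dependent prolyl hydroxylases that stabilise collagen. P4ha2 (chromosome 11, 53990921 to 54022491) had 24, 13 and 27 counts in BB-p53n EZH2i, 6, 14 and 14 in BB-p53n DMSO, and 10, 3 and 11 in p53n, or 0.951, 0.692 and 1.28 CPM, 0.179, 0.414 and 0.432 CPM, and 0.347, 0.125 and 0.463 CPM. All inhibitor libraries were above the others in CPM. It rose by 1.51 (SE 0.46, adjusted p = 0.00591) with the inhibitor, 1.30 with the trend removed, and was not called with PDGF-BB (0.12, adjusted p = 0.845). P4ha1 averaged 48.9 ± 3.56 CPM in BB-p53n EZH2i, 55.9 ± 2.44 CPM in BB-p53n DMSO and 42.6 ± 1.58 CPM in p53n, and rose by 0.39 (SE 0.08, adjusted p = 1.2e-04) with PDGF-BB. With the inhibitor P4ha1 stood at -0.19 (adjusted p = 0.029) and at 0.20 with the trend removed (adjusted p = 0.0278). Its call on the counts as deposited was lost without BB-p53n EZH2i replicate 1 (-0.16, adjusted p = 0.0731) or 2 (-0.16, adjusted p = 0.0906), or without BB-p53n DMSO replicate 1 (-0.20, adjusted p = 0.0634) or 2 (-0.16, adjusted p = 0.119).

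**Figure D5:**
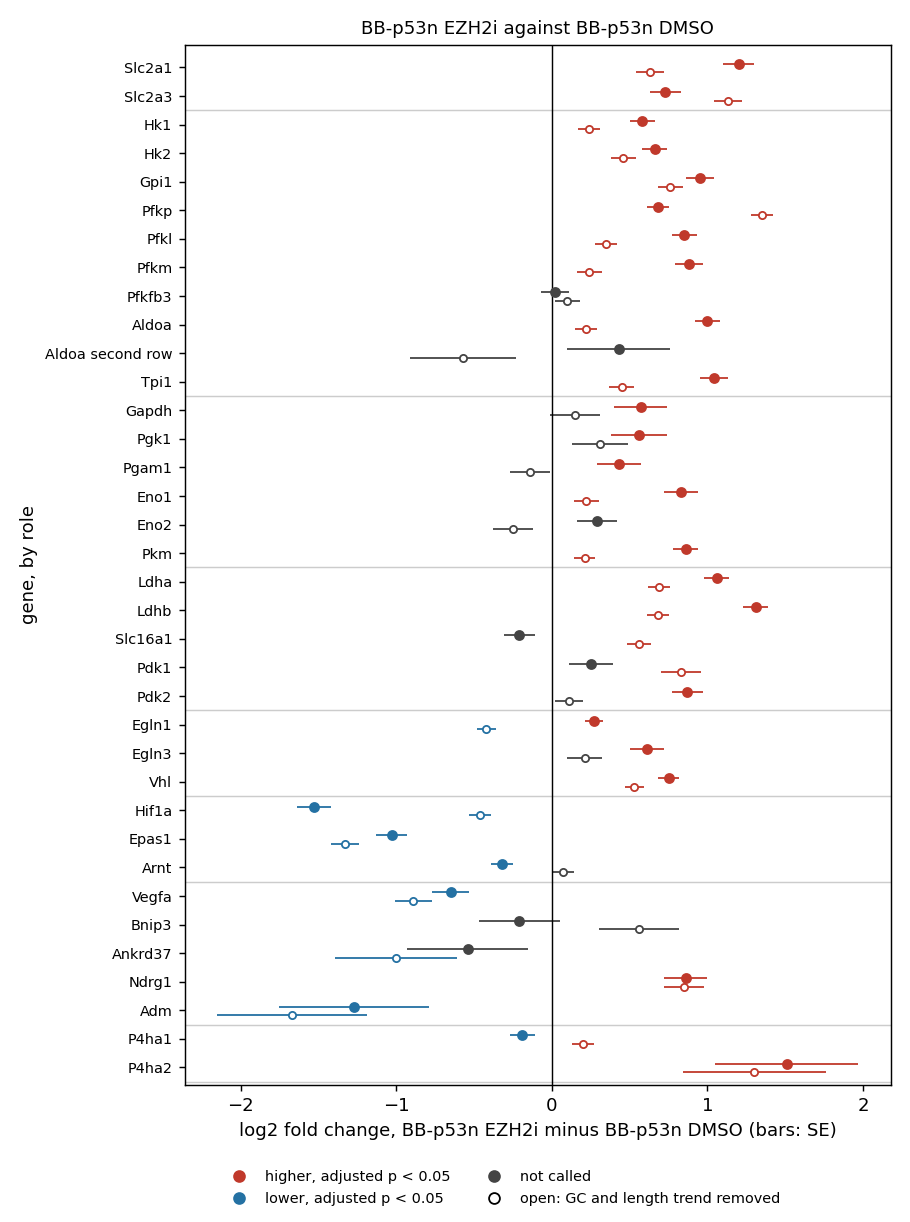
Log2 fold change of each tested row, BB-p53n EZH2i minus BB-p53n DMSO, with its SE, ordered by role; filled points are from the counts as deposited, open points from the fit with the GC and length trend removed. Slc2a1 at 1.20, Ldhb at 1.31 and Hif1a at -1.53 move toward 0 when the trend is removed, while Pfkp at 0.68 and Epas1 at -1.03 move away from it.

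BB-p53n EZH2i was also set against p53n, a contrast that shares libraries with both comparisons above, so its values are given on their own. Of the 36 rows 23 were called higher, where 40.3% of all genes were, and 8 lower, where 41.7% of all genes were, and the groups did not overlap in 32 rows, where they did not in 82.2% of all genes. With the trend removed 20 were higher, where 42.0% of all genes were, and 9 lower, where 35.9% of all genes were. Ndrg1 (2.28, SE 0.16), Hk2 (2.23, SE 0.09), Pfkp (2.18, SE 0.08), Ldha (2.11, SE 0.08) and the Aldoa second row (2.03, SE 0.39) rose by the most on the counts as deposited. With the trend removed these stood at 2.25, 2.01, 2.91, 1.70 and 0.95, so Pfkp led, and the Aldoa second row was below Slc16a1 (1.62) and Slc2a1 (1.40). The exon length behind the value of Pfkp was 13401 bases, while its longest coding transcript held only 4115 words of 31 bases. The part of this length in its lead was not tested. Pdk2 (-0.81), Egln3 (-0.70), Eno2 (-0.43), Epas1 (-0.48) and Hif1a (-1.62) were called lower in both fits, at -1.51, -1.14, -0.92, -0.77 and -0.27 with the trend removed. Of the rows called in both fits, Pfkm (0.26), Tpi1 (0.36) and Arnt (-0.27) changed sign with the trend removed, to -0.35, -0.23 and 0.16.

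Other genes of these pathways were read from lists that held no member. Of 44 other genes of glycolysis, lactate and pyruvate metabolism 33 were tested, and with PDGF-BB 8 were higher and 14 lower, where 35.3% and 34.0% of all genes were, with a median log2 fold change of -0.06 against -0.02 over all genes. The largest called changes were those of Fbp1, a gluconeogenic phosphatase (-2.30), Pcx, pyruvate carboxylase (-1.34), the glucose transporter gene Slc2a12 (-1.33) and Pfkfb1, a regulator of phosphofructokinase (1.31). With the inhibitor 14 of the 33 were higher and 10 lower, where 37.3% and 35.6% of all genes were, at a median of 0.23 against 0.02. With the trend removed these were 11 and 7, where 29.5% and 27.7% of all genes were, at 0.00 against 0.01. Pcx, which feeds pyruvate into the citric acid cycle as oxaloacetate, averaged 177 ± 20.3 CPM in BB-p53n EZH2i, 43.7 ± 2.22 CPM in BB-p53n DMSO and 110.4 ± 12.1 CPM in p53n. It rose by 2.02 with the inhibitor (adjusted p = 6.9e-13), 1.34 with the trend removed. Dld, a subunit of pyruvate dehydrogenase (-1.45, -0.46 with the trend removed), and Pfkfb2, a regulator of phosphofructokinase (-1.30 and -0.65), fell in both fits. The monocarboxylate transporter gene Slc16a7 stood at -1.30 on the counts as deposited and at 0.53 with the trend removed.

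The pentose phosphate pathway branches off at glucose 6-phosphate and makes NADPH and ribose. Of its 7 listed genes 5 were higher and 2 lower with PDGF-BB, where 35.3% and 34.0% of all genes were, at a median of 0.38 against -0.02 over all genes. Rpia, which makes ribose 5-phosphate, averaged 35.7 ± 1.98 CPM in BB-p53n EZH2i, 32.4 ± 1.64 CPM in BB-p53n DMSO and 11.5 ± 0.8 CPM in p53n, a log2 fold change of 1.50 with PDGF-BB (adjusted p = 1.1e-11). Pgls (0.56) and Taldo1 (0.45) also rose, and G6pdx, for the entry enzyme, fell (-0.39). With the inhibitor 5 were higher and 1 lower in either fit, where 37.3% and 35.6% of all genes were on the counts as deposited and 29.5% and 27.7% with the trend removed, at medians of 0.91 and, with the trend removed, 0.42. Pgls (1.16), Tkt (1.01) and Pgd (0.97) rose, and stood at 0.42, 0.72 and 1.18 with the trend removed, while Rpe fell (-1.46, and -0.35 with the trend removed).

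Of 40 other genes of the hypoxia response 33 were tested, of which 17 were higher and 9 lower with PDGF-BB, where 35.3% and 34.0% of all genes were, at a median of 0.33 against -0.02 over all genes. Igfbp3, for an IGF-binding protein (2.93), and Stc2, stanniocalcin 2 (1.49), rose, while Mxi1, for an antagonist of MYC (-1.70), and Ddit4, for an inhibitor of mTORC1 (-1.46), fell. Igfbp3 averaged 526 ± 33.1 CPM in BB-p53n EZH2i, 482 ± 24.6 CPM in BB-p53n DMSO and 63.3 ± 6.17 CPM in p53n. With the inhibitor 17 of the 33 were higher and 11 lower, where 37.3% and 35.6% of all genes were, at a median of 0.23 against 0.02. With the trend removed these were 12 and 8, where 29.5% and 27.7% of all genes were, at 0.05 against 0.01. Tfrc, the transferrin receptor (-2.08), Plod2, a lysyl hydroxylase (-1.30), and Kdm3a, a histone demethylase (-1.17), fell and Loxl2, a lysyl oxidase (1.47), rose, at -0.82, -0.46, -0.44 and 1.24 with the trend removed.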

How the data were processed

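RNA-seq counts per gene from 9 libraries, 3 per group, were used as deposited. The authors made these counts with featureCounts 1.6.3, per the file headers: read pairs with both ends mapped at a mapping quality of at least 20 were counted over exons by gene (Ensembl 108, GRCm39), with no strand option and no multi-mapping reads. Per the submitters' processing notes, Trimmomatic and Subread were also used, and per the labels' protocols polyadenylated RNA was captured with the Kapa mRNA HyperPrep kit and read as 150 bp pairs. The table held 56980 identifiers, of which 52073 (91.4%) matched a symbol by identifier in the GENCODE annotation of GRCm38, which also gave the GC content for 97.9% of the genes tested. Coordinates of genes are those of the table; promoter sequences are RefSeq's.

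Genes passing filterByExpr (17001) were fitted with edgeR 4.0.16 (R 4.3.3), with TMM scaling and robust quasi-likelihood tests over all 3 groups, adjusted by Benjamini-Hochberg over all genes; the common biological coefficient of variation was 0.0815. A companion fit removed each library's trend over GC content and exon length (splines with 5 degrees of freedom, as offsets). Exon length was that of all exons of a gene together, not of 1 transcript. Both fits were run on simulated counts with known fold changes and no GC or length trend put in. This check therefore cannot tell how well the trend in these libraries was removed. The smallest level resolved, 3 counts, was 0.0888 to 0.16 CPM per library. Counts of pairs of libraries differed by more than sampling noise, so all 9 were kept. Isoform shares were compared by exact permutation tests (scipy 1.17.1). Alternatives were other scalings, no filter, 2 groups in the fit, no sex or mitochondrial chromosomes, a replicate block, DESeq2 1.42.0 and leaving out each library.

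The members and lists were chosen with earlier results of these data known. All members are named; values in every library are given for those called with an absolute log2 fold change of at least 1 in either main comparison, for the sensor and factor genes and for those with few counts. From each list the 4 called genes with the largest change in each main comparison, among those averaging a log2 CPM of at least 1, are named.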

Additional observations from a re-analysis of the deposited data

How the results depend on the processing

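The counts of called members stayed within 1.5 times under all alternatives run. Leaving out 1 library at a time gave 19 higher and 10 lower with PDGF-BB, 23 to 24 higher and 4 to 7 lower with the inhibitor, and 19 to 23 higher and 8 to 9 lower for BB-p53n EZH2i minus p53n. Of the same-numbered libraries, BB-p53n EZH2i and BB-p53n DMSO deviated together for number 1 (correlation of deviations from group means 0.395) and number 2 (0.306) and not for number 3 (-0.058), while pairs with p53n were between -0.229 and 0.059. Not all same-numbered pairs were over 0.1, so the numbers were not taken as pairs. A replicate block gave 19 higher and 10 lower with PDGF-BB, 23 and 6 with the inhibitor, and 23 and 9 for BB-p53n EZH2i minus p53n. Together with trend removal the replicate block gave 20 and 10, 20 and 5, and 20 and 9. For these settings no shares of all genes are given, so the counts describe how far calls of members held, not how members differ from other genes.

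Reversals are listed here for rows called with the trend kept, with it removed, or both. Removing the GC and length trend reversed the log2 fold change of Hif1a with PDGF-BB (0.19, and 0.20 with the replicate block). With the inhibitor it reversed those of Pgam1 (-0.14), Slc16a1 (0.56), Egln1 (-0.42), Arnt (0.07) and P4ha1 (0.20), at the same values with the replicate block. Eno2 (0.29 to -0.25), Bnip3 (-0.21 to 0.56) and the Aldoa second row (0.43 to -0.57) also changed sign with the inhibitor, but were called in neither fit. For BB-p53n EZH2i minus p53n trend removal reversed Pfkm (-0.35), Tpi1 (-0.23, and -0.24 with the replicate block) and Arnt (0.16). Among isoform shares with the inhibitor, in percentage points, it reversed Slc2a3 (8.1), Pfkp (5.86), Pfkm (-5.98), Ldha (0.0482), Pdk2 (-8.63) and Epas1 (-10.6), and it reversed Epas1 for BB-p53n EZH2i minus p53n (-5.8). Leaving out 1 library at a time reversed small differences in shares in some cases. With the inhibitor these ran from -0.44 to 2.17 points for Hk2, from -0.362 to 0.729 for Pfkl and from -0.32 to 1.4 for Pfkm, and with PDGF-BB from -0.235 to 0.0395 for P4ha2. The reversed values were -0.44 for Hk2 without BB-p53n EZH2i replicate 1; -0.362, -0.299 and -0.3 for Pfkl without BB-p53n EZH2i replicate 1 or 3 or BB-p53n DMSO replicate 1; and -0.32 for Pfkm without BB-p53n EZH2i replicate 2. For P4ha2 they were 0.011 without BB-p53n DMSO replicate 1 and 0.0395 without p53n replicate 3. The causes were not tested. Low counts limit Adm, P4ha2, Ankrd37, the Aldoa second row and Car9. Shared sequence limits Gapdh, Eno1, Bnip3, Pgk1 and Pkm, and to a lesser degree Pgam1, Ldhb, Gpi1, Aldoa and Ldha.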
